A study of Mus musculus with 24 samples.

Results

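In neuronal nuclei of the mouse hippocampus, 42 of 30132 tested genes were called between double-knockout mice lacking Ogg1 and Mutyh (DKO) and mice lacking Mutyh alone (Mutyh-/-), that is 0.139% of the genes tested. Called means an adjusted p under 0.05 by the edgeR quasi-likelihood test with a log2 fold change above 0.5 in either direction, the thresholds of the study. The comparison rests on 6 of the 24 libraries of the series, 3 labelled DKO and 3 labelled Mutyh-/-, all from nuclei sorted as NeuN+, and it asks what the loss of Ogg1 adds where Mutyh is already missing. Of the 42 genes, 10 were higher in DKO (0.0332% of those tested) and 32 were lower (0.106%). They were not spread over the genome: 11 lay on chromosome 6 within 20 Mb of Ogg1, 11 in a cluster of Ccl21-related gene copies on chromosome 4, 10 in a cluster of duplicated genes on chromosome 14, 7 elsewhere, and 3 had no position in the annotations used. No called gene was a member of the 35 gene lists for repair, metabolism, synapse, chromatin and cell type, of whose 538 tested genes 38 had an unadjusted p under 0.05 (edgeR), 7.06% against 6.86% of all tested genes, and 0 were called by DESeq2.

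All mice were male, of the C57BL/6N strain and 6 months old, and the DKO line came from crossing the Ogg1-/- and Mutyh-/- lines. Both groups carried the Mutyh knockout, and the DKO group carried the Ogg1 knockout in addition. Nuclei were sorted by fluorescence with an antibody to NeuN (the protein of Rbfox3), into NeuN+ (neuronal) and NeuN- (mostly glial) nuclei, and nuclear RNA was sequenced. The series also holds 3 wild-type (WT) and 3 Ogg1-/- libraries per fraction, used below to set the DKO values in context, and tissue was pooled, so that it is not clear whether replicates are separate sets of animals.

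Ogg1 and Mutyh are DNA glycosylases, enzymes that begin base excision repair by cutting a wrong base from its sugar. Ogg1 removes 8-oxoguanine, the commonest oxidation product of guanine, while Mutyh removes the adenine that a polymerase places opposite it, so both work on the same lesion at different steps. In a mouse line made by gene targeting, the stretch of chromosome on both sides of the targeted gene is inherited together with the mutation.

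The 6 libraries held 56563586 to 81093906 counts in genes. The check of the labels gave no fall of either targeted gene in the counts. Ogg1 (chr6:113326972-113335068, plus strand, GRCm38) stood at 2.68, 2.99 and 2.65 CPM (counts scaled to the TMM-adjusted library size) in the libraries labelled Mutyh-/- and at 3.03, 2.96 and 3.21 CPM in those labelled DKO. The difference of 0.15 ± 0.12 on the log2 scale (SE) did not pass the test (adjusted p = 0.818, edgeR), and the WT mean was 3.04 CPM. Mutyh (chr4:116807723-116819440, plus strand) was at 10.6, 10.7 and 9.06 CPM in Mutyh-/- and at 7.74, 8.39 and 11.1 CPM in DKO, both far above the WT mean of 1.14 CPM and the Ogg1-/- mean of 1.20 CPM. A count per gene does not show which exons the reads fell on, so these counts do not check the deletions, and the groups are named throughout as their libraries were labelled. Camk1, a calcium/calmodulin-dependent kinase whose 3′ end overlaps that of Ogg1 on the other strand, was at 9.64, 9.63 and 9.10 CPM in Mutyh-/- and at 7.64, 6.73 and 7.51 CPM in DKO. The groups did not overlap for Camk1, but its log2 difference of -0.37 ± 0.08 had an adjusted p of 0.146. In Ogg1-/- against WT it was -0.47 (adjusted p = 0.0101).

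Broad neuronal and oligodendrocyte markers followed the sort labels in these libraries. Summed over 9 neuronal markers the level was 6034 to 6759 CPM in the 6 NeuN+ libraries against 732 to 827 CPM in the matching NeuN- libraries, and 10 oligodendrocyte markers summed to 143 to 164 CPM against 5667 to 8414 CPM. Some narrower neuronal sets differed far less. The 14 interneuron markers summed to 320 to 392 CPM in NeuN+ against 268 to 377 CPM in NeuN- libraries. For 8 dentate gyrus markers the sums were 717 to 907 CPM against 531 to 704 CPM. Within the DKO group 1 library stood apart, as replicate 3 lay between the other DKO libraries and the Mutyh-/- libraries in both the chromosome 4 and the chromosome 14 cluster. Without it, 74 genes were called, 41 of them among the 42. Without Mutyh-/- replicate 3, 72 genes were called, 40 of them among the 42, and without any of the other 4 libraries 36 to 41. A fit of the 6 libraries alone, which estimates the spread from fewer samples, called 16 genes, 7 of them near Ogg1. All 42 called genes had libraries that did not overlap between the groups, as 10.5% of all tested genes did.

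**Figure D1:**
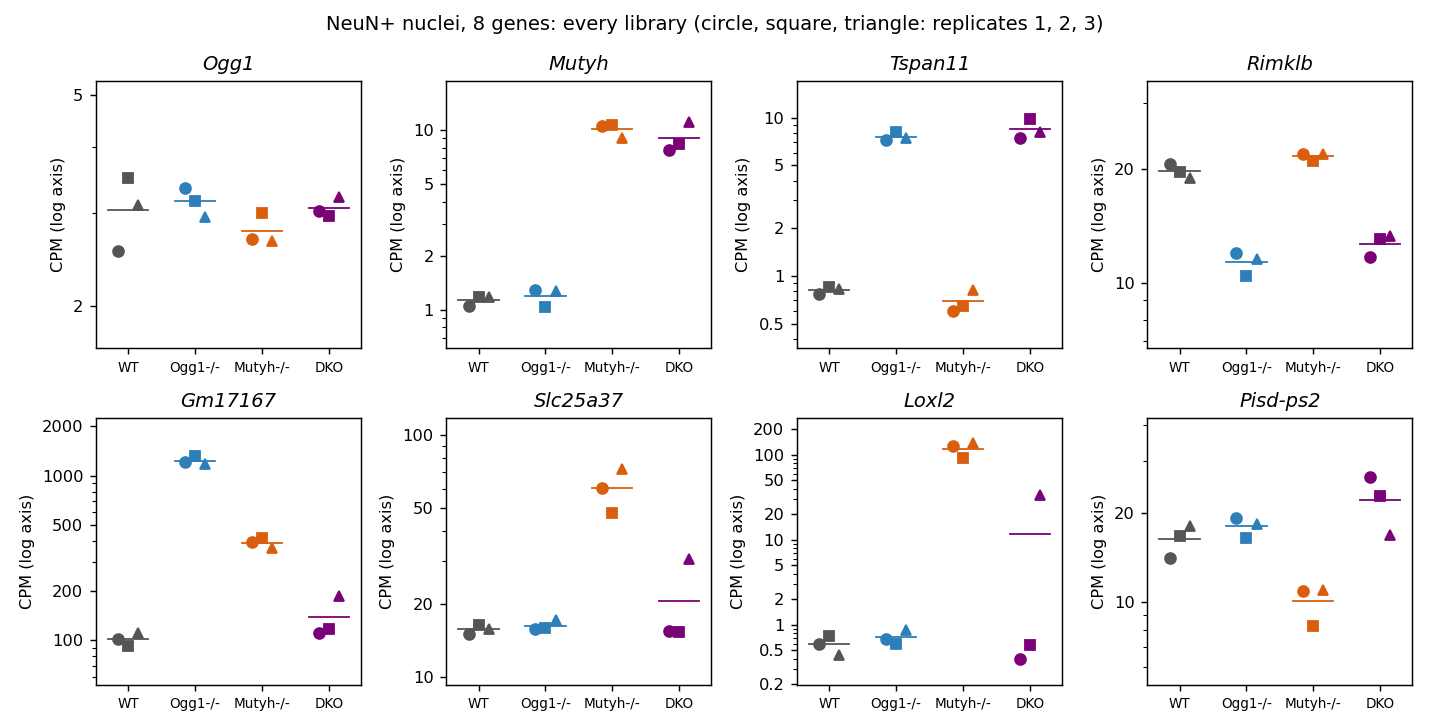
Level of 8 genes in the 12 NeuN+ libraries, in CPM on a log axis; each symbol is 1 library (circle, square and triangle for replicates 1, 2 and 3) and each line a group mean. Ogg1 is level across genotypes, Mutyh is higher in both Mutyh-/- and DKO, Tspan11 and Rimklb split the genotypes by Ogg1, and DKO replicate 3 lies above the other DKO libraries for Gm17167, Slc25a37 and Loxl2.

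The smallest adjusted p of all tested genes was that of Tspan11, a gene of the tetraspanin family of membrane proteins. Tspan11 (chr6:127887589-127953977, plus strand) lies 14.6 Mb from Ogg1. It was at 0.604, 0.649 and 0.819 CPM in Mutyh-/- and at 7.41, 9.88 and 8.15 CPM in DKO. The lowest DKO library was thus several times the highest Mutyh-/- library, and the fold change was 12.1 (log2 3.597 ± 0.14 SE, adjusted p = 2.47e-09, edgeR). Across the 4 genotypes its level followed the Ogg1 label, with means of 0.818 CPM in WT and 7.60 CPM in Ogg1-/-, a rise of 3.21 on the log2 scale (adjusted p = 1.21e-09). The difference between both rises was 0.38 (adjusted p = 0.645).

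Gm15870, annotated as antisense to Tspan11 and lying inside it, rose with it, from 0.0979, 0.0361 and 0.102 CPM in Mutyh-/- to 1.14, 1.38 and 1.26 CPM in DKO (log2 3.92 ± 0.28, adjusted p = 7.86e-06). The strand setting of the counting is not given in the sources used here, so reads of the one gene counted for the other cannot be told apart. The 250 bases before the annotated start of Tspan11 (chr6:127887372-127887621, plus strand, RefSeq, GRCm38.p6) are shown because Tspan11 had the smallest adjusted p, and those before the RefSeq start of Rimklb (chr6:122486306-122486555, minus strand) because Rimklb had the smallest adjusted p among the protein-coding genes that fell. The GENCODE starts differ, at 127887589 for Tspan11 and 122498761 for Rimklb. By these the Tspan11 stretch reaches into the gene and the Rimklb stretch lies inside it. Both are printed 5′ to 3′ with GC boxes (GGGCGG on either strand) in capitals.
Tspan11: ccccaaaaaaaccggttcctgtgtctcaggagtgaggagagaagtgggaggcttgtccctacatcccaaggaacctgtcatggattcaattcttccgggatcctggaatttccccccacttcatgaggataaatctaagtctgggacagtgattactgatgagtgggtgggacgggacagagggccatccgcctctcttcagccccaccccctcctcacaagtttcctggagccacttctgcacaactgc
Rimklb: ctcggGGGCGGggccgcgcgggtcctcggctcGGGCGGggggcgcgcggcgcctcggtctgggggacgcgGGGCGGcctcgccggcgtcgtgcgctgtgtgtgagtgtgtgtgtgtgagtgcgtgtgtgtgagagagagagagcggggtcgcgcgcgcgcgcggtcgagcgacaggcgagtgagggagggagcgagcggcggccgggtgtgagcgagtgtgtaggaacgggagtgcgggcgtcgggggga
The stretch before Tspan11 holds neither a GC box nor a TATA box (TATAAA on either strand), while that before Rimklb holds 3 GC boxes and no TATA box. Of 27025 promoters of the same length, 32.9% hold a GC box and 13.0% a TATA box. G and C make up 54.0% of the bases before Tspan11 and 76.4% of those before Rimklb, against a median of 52.0%. Of the 42 called genes, 11 had an entry in this promoter table.

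Rimklb, which encodes an enzyme that joins glutamate to N-acetylaspartate to form the brain dipeptide NAAG, fell. It was at 22.0, 21 and 22.0 CPM in Mutyh-/- and at 11.7, 13.0 and 13.3 CPM in DKO (log2 -0.77 ± 0.07, adjusted p = 4.97e-05). In Ogg1-/- against WT the change was -0.80 (adjusted p = 5.18e-06), and the groups split by the Ogg1 label in the same way, since WT stood at 19.8 CPM and Ogg1-/- at 11.4 CPM. Efcab12, an EF-hand protein gene and the called gene nearest to Ogg1 at 2.48 Mb, was at 11.9, 11.5 and 13.3 CPM against 6.67, 7.16 and 8.46 CPM in DKO (-0.72 ± 0.08, adjusted p = 0.000818).

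The smallest adjusted p values among the falling genes belonged to a pair of short transcripts near Tspan11, both annotated with the type TEC, which awaits experimental evidence. One of them, 4921513H07Rik, was at 2.97, 3.10 and 3.49 CPM in Mutyh-/- and at 1.06, 1.15 and 1.05 CPM in DKO (-1.56 ± 0.11, adjusted p = 7.86e-06). Gm42811 was at 1.73, 2.33 and 2.18 CPM against 0.507, 0.421 and 0.419 CPM (-2.21 ± 0.16, adjusted p = 8.06e-06). Neither gene overlapped an annotated neighbour, and the groups were well apart for both.

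Ret, the receptor tyrosine kinase for the glial cell line-derived neurotrophic factor family, rose from 0.799, 1.03 and 1.05 CPM to 1.72, 2.07 and 2.08 CPM (1.02 ± 0.14, adjusted p = 0.00285). A2m, the protease inhibitor alpha-2-macroglobulin, was at 0.473, 0.288 and 0.435 CPM in Mutyh-/- and at 1.28, 0.777 and 0.960 CPM in DKO (1.31 ± 0.23, adjusted p = 0.0266). Cracr2a, a calcium sensor that regulates store-operated calcium channels, was at 9.48, 9.57 and 11.5 CPM against 15.2, 14.8 and 13.8 CPM (0.51 ± 0.08, adjusted p = 0.0112). Cracr2a lost its call without any 1 of DKO replicates 1 and 2 and Mutyh-/- replicates 1 and 2, with adjusted p values of 0.0638 to 0.111, and A2m lost its call without DKO replicate 1 or Mutyh-/- replicate 1 or 2 (adjusted p = 0.138, 0.0696 and 0.145). Tex52 and its antisense partner Gm15862, which share an overlapping stretch, fell together by 1.49 and 1.03 on the log2 scale (adjusted p = 0.00234 and 0.000922).

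Within 20 Mb of Ogg1 the called genes lay on 1 side of it, between 115.81 and 128.40 Mb. Of the genes from 0 to 20 Mb beyond Ogg1, 2 of 96, 2 of 72, 5 of 118 and 2 of 46 were called in successive steps of 5 Mb. None of 119 on the other side within 20 Mb was called, where 6 had an unadjusted p under 0.05 and DESeq2 called 0. Grm7 lies on that other side and passed the adjusted p, but not the limit on size. Within 20 Mb on both sides 2.44% of 451 tested genes were called, against 31 of the 29681 genes outside that window, or 0.104%, and 18.0% had groups that did not overlap, against 10.5% of all tested genes. Of the 28557 genes that also lay outside the Mutyh window and both clusters, whose limits were set after the data were seen, and that had a position, 0.0245% were called. None of the 645 tested genes within 20 Mb of Mutyh, which is knocked out in both groups, was called by edgeR or DESeq2, and 44 (6.82%) had an unadjusted p under 0.05. All 11 genes called near Ogg1 had the same direction in Ogg1-/- against WT, a comparison that shares no library with this one, and 8 were also called there. No gene within 20 Mb of Ogg1 passed the test of a difference between the Mutyh backgrounds. The interval around Ogg1 and the Ogg1 genotype cannot be told apart in this design, because both go with the label.

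**Figure D2:**
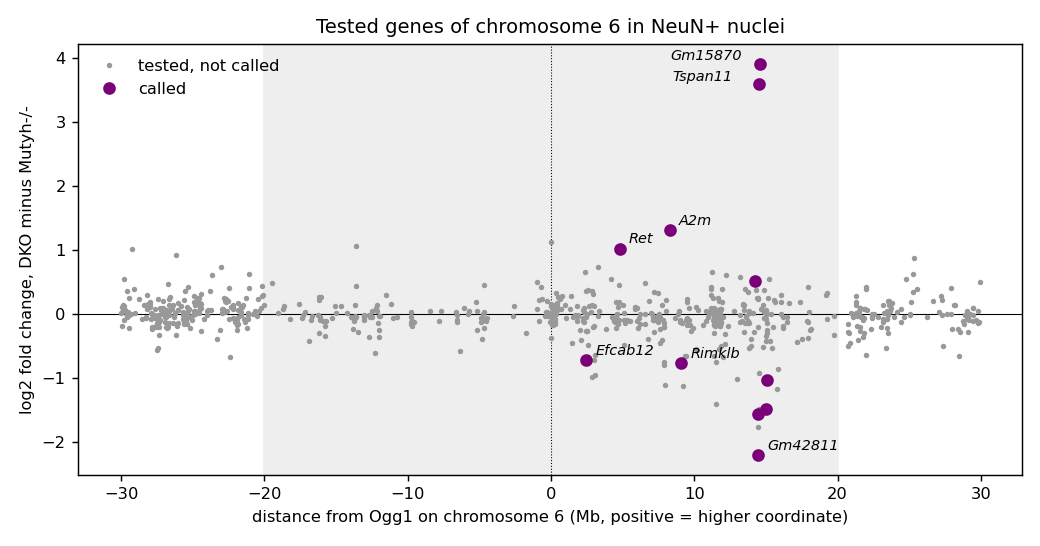
Log2 fold change of DKO against Mutyh-/- in NeuN+ nuclei for tested genes of chromosome 6 by their distance from Ogg1 in Mb; grey points were not called, purple points were called and the shaded band marks 20 Mb on either side. All called genes in the band lie at positive distances of 2.48 to 15.05 Mb.

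Another 4 genes near Ogg1 passed the adjusted p but not the limit on size. Among them was Grm7, the metabotropic glutamate receptor mGluR7 of presynaptic terminals, at 1701, 1681 and 1722 CPM in Mutyh-/- and 1347, 1372 and 1440 CPM in DKO (-0.30 ± 0.05, adjusted p = 0.0204). Grm7 lies 1.76 Mb before Ogg1, on the side without called genes. It was the only member of any list with an adjusted p under 0.05. The zinc finger gene Zfp248 was at 13.0, 13.1 and 13.5 CPM against 9.19, 9.86 and 9.31 CPM (-0.48 ± 0.06, adjusted p = 0.00175). With no limit on size, 49 genes passed, or 0.163%.

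The second group of genes lay between 41.81 and 42.46 Mb on chromosome 4, 0.65 Mb that hold several copies of Ccl21, a chemokine that draws Ccr7-bearing immune cells, among pseudogenes derived from their neighbours. All 11 called genes were lower in DKO, with a median log2 change of -1.73 (range -2.30 to -0.53). The most abundant, the noncoding Gm17167 (chr4:42206998-42235313, plus strand), was at 395, 415 and 363 CPM in Mutyh-/- and at 110, 116 and 186 CPM in DKO (-1.51 ± 0.15, adjusted p = 0.00016). Gm13303 was at 26.1, 25.0 and 23.7 CPM against 10.02, 9.81 and 13.5 CPM (-1.16 ± 0.10, adjusted p = 4.97e-05). For both genes DKO replicates 1 and 2 stood close to the WT mean, which was 101 CPM for Gm17167 and 9.89 CPM for Gm13303, and replicate 3 above it.

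The genotypes took a different order here than near Ogg1. For all 11 genes every Ogg1-/- library was above every other NeuN+ library, and every Mutyh-/- library above every WT library. Summed over the 11 genes, WT stood at 189, 180 and 203 CPM, Mutyh-/- at 738, 782 and 696 CPM, Ogg1-/- at 2303, 2493 and 2331 CPM and DKO at 205, 226 and 358 CPM. Ogg1-/- was thus 12.5-fold above WT and Mutyh-/- 3.88-fold, while the libraries that carry both labels were close to WT apart from replicate 3. Against WT, the 11 genes rose in Ogg1-/- by 1.93 to 5.32 on the log2 scale, and all 11 were called there, in the opposite direction to DKO against Mutyh-/-. The interaction test passed 48 genes (0.159%), for which the difference by the Ogg1 label changed with the Mutyh background. Of these, 27 were among the 77 tested genes of this stretch.

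These genes share sequence, and the counts of one may hold reads of another. Gm13303 shared 100% of its 100-base stretches with other genes, Gm3893 97.5%, Gm3883 91.6% and Gm17167 58.6%. Some protein-coding Ccl21 copies of this stretch, which were not among the called genes, are also close to each other. The coding sequences of Ccl21b, Gm10591 and Gm13304 were identical over 399 bases and differed from that of Ccl21a, the copy just outside the called stretch, at 2 bases, T84A and C194T (the Ccl21a base first, positions counted from 1 at the start codon). The 41 coding bases around each site are given for Ccl21a (chr4:42773727-42773855 and chr4:42773523-42773657, minus strand, each across an exon junction) and for Ccl21b (chr4:42255830-42255958 and chr4:42256028-42256162, plus strand), from GENCODE vM21 transcripts on GRCm38, with the differing base in capitals.
Ccl21a, site 1: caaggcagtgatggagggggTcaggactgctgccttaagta
Ccl21b, site 1: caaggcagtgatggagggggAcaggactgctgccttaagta
Ccl21a, site 2: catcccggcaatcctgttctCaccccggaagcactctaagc
Ccl21b, site 2: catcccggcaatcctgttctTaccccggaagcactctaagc
Between the groups Ccl21a was not lower in DKO, while Ccl21d and Ccl21b were. Ccl21a was at 5.63, 6.18 and 6.75 CPM in Mutyh-/- and at 7.87, 6.44 and 5.34 CPM in DKO, a log2 difference of 0.08 ± 0.11 (adjusted p = 0.92). Ccl21d (chr4:41903613-41904743, a RefSeq position) fell from 2.94, 3.46 and 3.84 CPM to 2.03, 1.34 and 2.02 CPM (-0.93 ± 0.14, adjusted p = 0.00597). Ccl21b was at 4.44, 5.08 and 5.94 CPM against 3.98, 2.62 and 3.47 CPM, which did not pass (-0.63 ± 0.13, adjusted p = 0.141). DESeq2 and the edgeR likelihood ratio test did call Ccl21b.

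The 3 called genes with no position, Gm10599, Gm50470 and BX666061.1, had the same order of genotypes as the chromosome 4 cluster. Gm10599 fell from 58.3, 61.1 and 61.7 CPM in Mutyh-/- to 5.24, 6.32 and 23.1 CPM in DKO (-2.38 ± 0.36, adjusted p = 0.00759), while Ogg1-/- rose by 5.54 over WT on the log2 scale. Its fall was 5.19-fold with all libraries and 10.4-fold without DKO replicate 3.

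**Figure D3:**
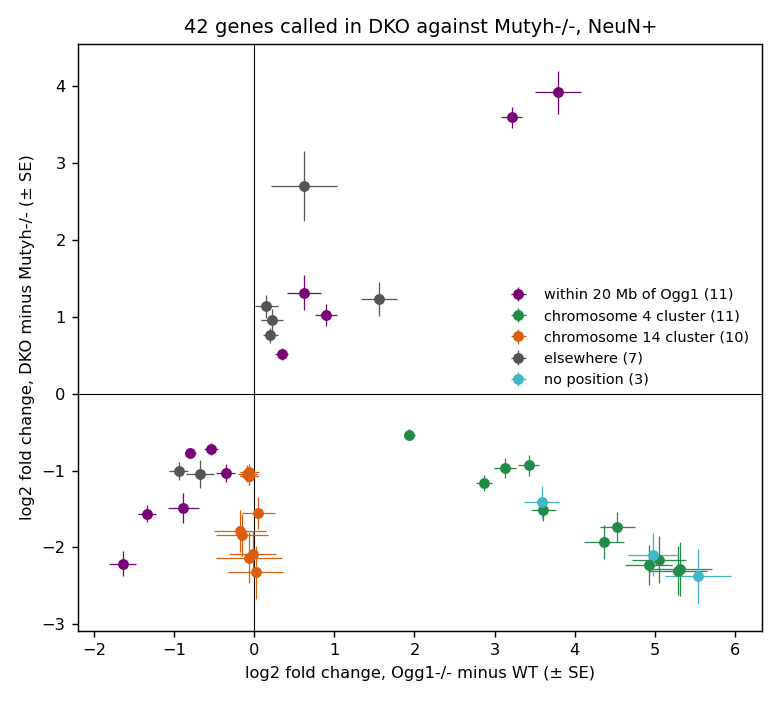
Log2 fold changes (± SE) of the 42 called genes in DKO against Mutyh-/- (vertical) and in Ogg1-/- against WT (horizontal), NeuN+ nuclei, coloured by position. The 11 genes near Ogg1 lie in the quadrants of equal sign, the 11 genes of the chromosome 4 cluster at 1.93 to 5.32 on the horizontal axis and below 0 on the vertical one, and the chromosome 14 genes near 0 on the horizontal axis.

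The stretch from 69 to 70 Mb on chromosome 14 held 30 tested genes, whose median log2 change was -1.03, and 33.3% of them were called. These 10 called genes lay between 69.24 and 69.68 Mb and were all lower in DKO. Their median log2 change was -1.67 (range -2.32 to -1.02). They include Slc25a37, encoding mitoferrin-1, which carries iron into mitochondria, and Entpd4 and Entpd4b, a duplicated pair encoding a nucleotide-splitting enzyme of internal membranes. Slc25a37 (chr14:69241848-69285112, minus strand) was at 60.1, 47.6 and 72.6 CPM in Mutyh-/- and at 15.5, 15.4 and 30.7 CPM in DKO (-1.55 ± 0.21, adjusted p = 0.00243). Entpd4b was at 111, 94.2 and 134 CPM against 51.2, 46.9 and 63.2 CPM (-1.08 ± 0.11, adjusted p = 0.000336). Gm16867 fell from 243, 183 and 269 CPM to 26.1, 24.9 and 87.8 CPM (-2.32 ± 0.35, adjusted p = 0.00638).

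In this cluster it was the Mutyh-/- group that differed from the other genotypes. The 10 genes summed to 170, 184 and 171 CPM in WT, to 170, 170 and 170 CPM in Ogg1-/-, to 687, 546 and 789 CPM in Mutyh-/- and to 178, 166 and 314 CPM in DKO. Mutyh-/- was 3.86-fold above WT, while DKO replicates 1 and 2, also labelled as lacking Mutyh, lay near the WT and Ogg1-/- libraries. None of the 10 genes was called in Ogg1-/- against WT, where their log2 changes were -0.18 to 0.05, and 5 passed the test of a difference between the Mutyh backgrounds.

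Entpd4 and Entpd4b cannot be separated in these counts. Their longest coding transcripts were identical over all 3589 bases, and their counts ran in parallel (log2 -1.07 and -1.08). The 80 coding bases below lie in 1 exon of each gene, at chr14:69349075-69349154 and chr14:69567325-69567404 (both plus strand, GENCODE vM21, GRCm38), and are given in lower case throughout because no base differs.
Entpd4 and Entpd4b: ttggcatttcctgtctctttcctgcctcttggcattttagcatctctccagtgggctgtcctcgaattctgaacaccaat
Gm20236, Gm27176, Gm27177, Gm27221, Gm27222 and Gm37094 likewise shared 100% of their 100-base stretches with other genes and Gm16867 96.3%, whereas Slc25a37 shared 6.11%.

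Loxl2, in the same cluster, had a larger fold change than any of the 10 but was not called. Loxl2 (chr14:69609068-69695834, plus strand) encodes an enzyme that cross-links collagen and is named here because its values were seen to stand out. It was at 126, 91.8 and 136 CPM in Mutyh-/-, at 0.394, 0.579 and 34.1 CPM in DKO and at a mean of 0.591 CPM in WT and 0.710 CPM in Ogg1-/-. All DKO libraries were below all Mutyh-/- libraries, but the spread between DKO libraries left a log2 change of -3.32 ± 0.87 (adjusted p = 0.383). Without DKO replicate 3 it was -7.90 (adjusted p = 3.25e-11). Gm27177, which is called and overlaps Loxl2 on the other strand, was at 115, 87.7 and 123 CPM against 16.9, 15.2 and 44.8 CPM.

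DKO replicate 3 took about the same place in both clusters. The distance from the mean of the other DKO libraries to the Mutyh-/- mean was set at 100%, and the place of DKO replicate 3 on it was computed for each called gene. In NeuN+ nuclei the median was 28.8% over the 11 genes of chromosome 4 (range 19.3 to 35.3%) and 30.6% over the 10 of chromosome 14 (11 to 36.8%). DKO replicate 3 lay above the other DKO libraries for 10 of the 11 genes of chromosome 4 and all 10 of chromosome 14 in NeuN+ nuclei. In NeuN- nuclei, which were sequenced as separate libraries, it did so for all 21 genes, at medians of 29.9% and 29.5%. Both fractions were collected in the sort, so same-numbered NeuN+ and NeuN- libraries may come from the same tissue. The labels do not say whether they do. Loxl2 gave 28.6% in NeuN+ and 32.9% in NeuN- nuclei. For the 11 genes near Ogg1, DKO replicate 3 was the DKO library nearest to Mutyh-/- in 5. It was the nearest for 5 of the 7 called genes elsewhere and for all 3 without a position. With DKO replicate 3 the summed level was 2.81-fold higher in Mutyh-/- than in DKO on chromosome 4 and 3.08-fold higher on chromosome 14, and without it 3.43-fold and 3.93-fold higher. Within Mutyh-/- the chromosome 14 sum also varied between replicates in both fractions, being lowest in replicate 2 and highest in replicate 3 each time.

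**Figure D4:**
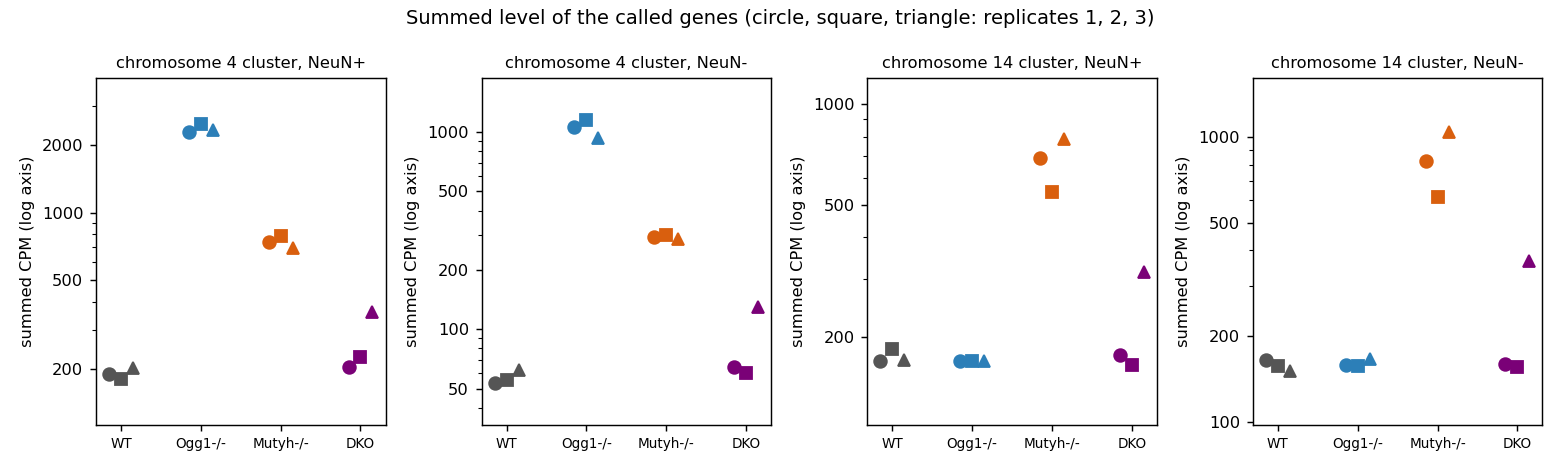
Summed CPM of the called genes of the chromosome 4 cluster (11 genes) and the chromosome 14 cluster (10 genes) in every library of both fractions, log axis; circle, square and triangle are replicates 1, 2 and 3. DKO replicate 3 (triangle) lies above the other DKO libraries in all 4 panels, at 358 against 205 and 226 CPM on chromosome 4 and 314 against 178 and 166 CPM on chromosome 14 in NeuN+ nuclei.

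The remaining 7 called genes lay elsewhere. Pisd-ps2 on chromosome 17 and Pisd-ps1 on chromosome 11, pseudogene copies of the phosphatidylserine decarboxylase gene Pisd, both rose. Pisd-ps2 was at 10.8, 8.29 and 10.9 CPM in Mutyh-/- and at 26.6, 22.9 and 16.8 CPM in DKO (1.13 ± 0.15, adjusted p = 0.00213), and Pisd-ps1 was at 16.1, 11.7 and 15.6 CPM against 33.8, 27.8 and 22.7 CPM (0.95 ± 0.14, adjusted p = 0.00658). For both pseudogenes the WT and Ogg1-/- means lay between those of the groups compared, and Pisd itself was at 32.7, 33.2 and 31.8 CPM against 33.4, 32.5 and 33.5 CPM. Vwa5b1, a gene with a von Willebrand factor type A domain, rose from 2.104, 2.13 and 2.12 CPM to 3.97, 3.58 and 3.21 CPM (0.76 ± 0.10, adjusted p = 0.00234), with the WT mean at 3.49 CPM. B230112I24Rik, a transcript inside Cntnap2 on chromosome 6 but 68.3 Mb from Ogg1, fell from 3.39, 3.59 and 3.88 CPM to 1.84, 1.70 and 1.88 CPM (-1.002 ± 0.12, adjusted p = 0.000922) and by 0.94 in Ogg1-/- against WT (adjusted p = 0.00052).

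The other 3 were weaker. The small nucleolar RNA gene Gm25523, inside Snhg14, was below 0.11 CPM in every Mutyh-/- library and at 0.732, 0.619 and 0.677 CPM in DKO (2.70 ± 0.46, adjusted p = 0.0212). Gm42860 rose by 1.23 and the processed pseudogene Gm16470, part of whose sequence is shared with Gapdh, fell by 1.04 on the log2 scale (adjusted p = 0.0431 and 0.0289). Gm25523 and Gm42860 were called without DKO replicate 3 but lost their calls without any of the other 5 libraries, and Gm16470 lost its call without DKO replicate 2 or 3 or Mutyh-/- replicate 1 or 2.

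Among the DNA glycosylase genes, which start base excision repair and number 11 with Ogg1 and Mutyh, none was called. Their median log2 change was -0.03 against -0.005 over all tested genes, from -0.20 for Neil3 to 0.18 for Ung. The 14 genes of the steps after the glycosylase had a median of 0.03, and the 7 Nudix hydrolases, which clear oxidized nucleotides, one of -0.01. Pole, the catalytic subunit of DNA polymerase epsilon, had the largest value in the repair lists at 0.57 ± 0.24 (adjusted p = 0.703). Of 23 tested p53 target genes 8 were higher and 15 lower in DKO, among them Cdkn1a, an inhibitor of the cell cycle, at -0.64 ± 0.25 (adjusted p = 0.652), and none passed.

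Genes of energy metabolism and protein synthesis leaned lower by small amounts. Of 79 cytosolic ribosomal protein genes 73 were lower in DKO, with a median of -0.12, against 15487 of the 30132 tested genes. The lists for respiratory complexes II to V (31 of 37 lower, median -0.07), complex I (28 of 36, -0.04) and glycolysis (18 of 24, -0.06) leaned the same way, and no member of these lists passed the test. Summed ribosomal protein levels overlapped, at 997, 960 and 871 CPM in Mutyh-/- and 847, 921 and 786 CPM in DKO. In Ogg1-/- against WT the same lists had medians of -0.35, -0.25, -0.12 and -0.24. Genes of 1 list share the same 6 libraries, so these shares are not tests. The 15 mitochondrially encoded genes were not analysed here, since the table held none of them.

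Immediate early genes, which neurons switch on within minutes of activity, were lower in 19 of 21 cases (median -0.20), with Fos at the low end at -0.41 and Npas4 at the high end at 0.06, and none passed. Their summed level was 436, 581 and 576 CPM in Mutyh-/- and 476, 424 and 515 CPM in DKO, so that the groups overlapped. The medians of the receptor and channel lists stayed close to 0. They were -0.003 for 7 NMDA receptor subunits, -0.01 for 9 AMPA and kainate receptor subunits and 0.008 for 12 GABA-A receptor subunits. For 7 metabotropic glutamate receptors the median was 0.002, for 23 sodium and calcium channels 0.004 and for 26 potassium channels 0.02. Summed metabotropic receptor levels did not overlap, at 4194, 4187 and 4276 CPM in Mutyh-/- and 3797, 3779 and 3882 CPM in DKO. The lowest member of that list was Grm7 at -0.30. Synaptic vesicle genes had a median of -0.04 and calcium/calmodulin-dependent kinases one of -0.04. The 14 tested members of polycomb repressive complex 2, which deposits the repressive H3K27me3 mark, had a median of -0.02, with Epop lowest at -0.35 ± 0.14 (adjusted p = 0.666), and 11 DNA methylation genes one of 0.04, with Dnmt3b highest at 0.56 ± 0.16 (adjusted p = 0.493). Of 8 tested genes that the study names, only Grm7 passed the adjusted p. The study names Grm7 for non-neuronal cells, whereas here it was tested in NeuN+ nuclei against Mutyh-/-. Antioxidant genes (median -0.02 over 29) and genes of the citrate cycle (-0.03 over 20) likewise held no called gene.

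**Figure D5:**
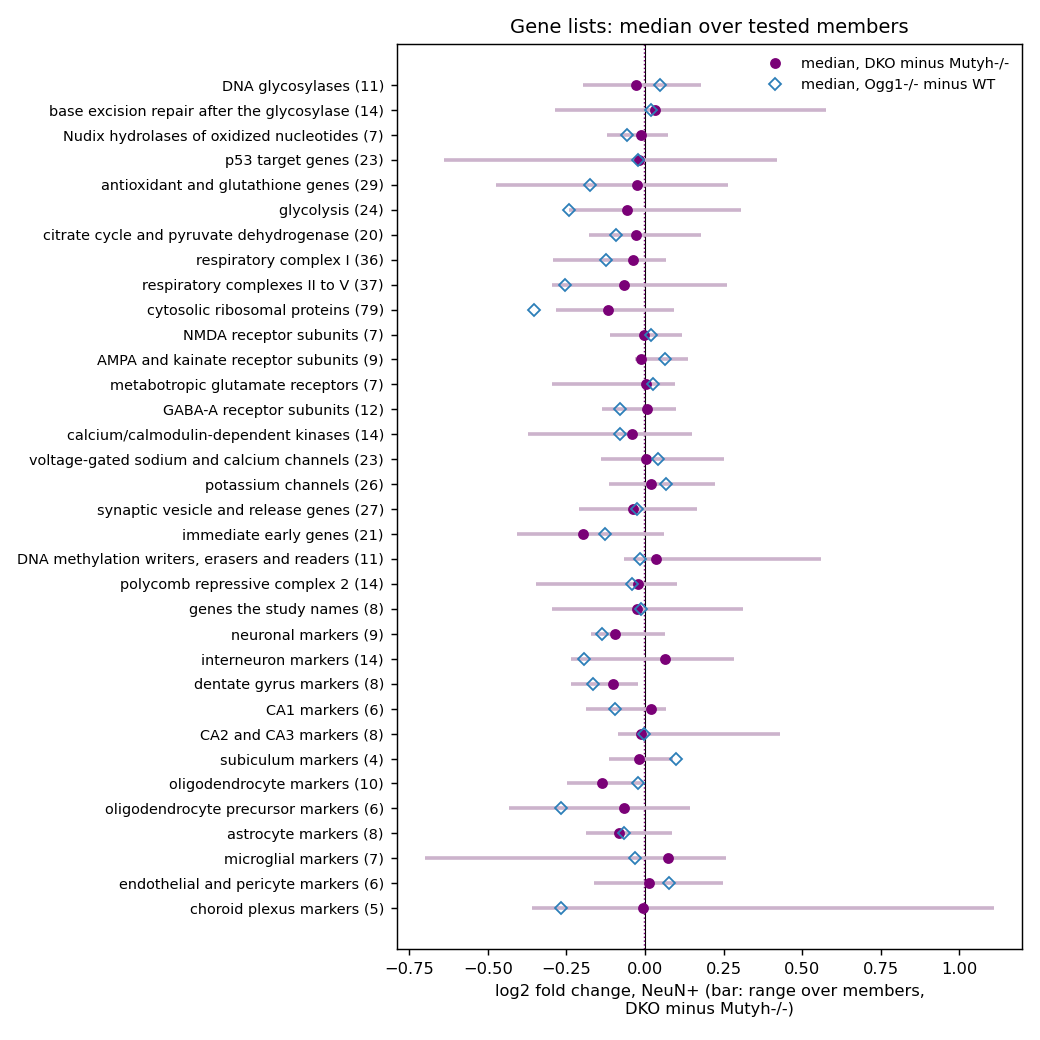
Median log2 fold change of 34 gene lists in NeuN+ nuclei for DKO against Mutyh-/- (filled circles, with a bar from the lowest to the highest member) and Ogg1-/- against WT (open diamonds); the number of tested members stands in parentheses and the dotted line is the median of all tested genes. Every filled circle lies between -0.20 and 0.07.

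For cell type markers the median log2 change was -0.09 for neuronal, 0.06 for interneuron, -0.10 for dentate gyrus, 0.02 for CA1, -0.01 for CA2 and CA3 and -0.02 for subiculum markers. For cells that the sort should remove, it was -0.14 for oligodendrocytes (10 of 10 lower), -0.07 for their precursors, -0.08 for astrocytes, 0.07 for microglia, 0.01 for endothelial cells and pericytes and -0.005 for the choroid plexus. None of these markers passed the test. In sorted nuclei counted in bulk, fewer nuclei of a type and less RNA per nucleus cannot be told apart. Summed oligodendrocyte markers were 164, 158 and 143 CPM in Mutyh-/- and 144, 159 and 148 CPM in DKO, and summed astrocyte markers 275, 270 and 279 CPM against 259, 300 and 251 CPM.

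Ogg1-/- against WT called 173 genes (0.574%), and 24 genes were called in both comparisons, which is 57.1% of the 42 and 13.9% of the 173. Of these, 10 had the same direction and 14 the opposite, the latter being the 11 genes of the chromosome 4 cluster and the 3 genes without a position. Of the 149 genes called only in Ogg1-/- against WT, 117 had the same sign in DKO against Mutyh-/-, as 52.1% of all genes did. Across all 30132 genes, which are not independent replicates, the 2 sets of log2 changes had a Pearson correlation of 0.01 and a Spearman correlation of 0.04. In the count of calls from Ogg1-/- against WT a single library weighed heavily, since it fell to 70 without Ogg1-/- replicate 2, 74 without replicate 3, and 110, 75 and 78 without WT replicates 1, 2 and 3.

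In NeuN- nuclei, DKO against Mutyh-/- called 39 genes (0.122% of 31863), 9 higher and 30 lower, and 18 of these were among the 42, or 46.2% of the 39 and 42.9% of the 42. Of the 41 genes with a value in NeuN- nuclei, 40 had the same direction there. All called genes of the chromosome 4 and chromosome 14 clusters were lower in DKO in both fractions. The interaction test across both fractions passed 3 genes (0.00895%), and all lay near Ogg1. Tspan11 was at 5.10, 5.88 and 11.9 CPM in NeuN- Mutyh-/- libraries and at 8.75, 8.38 and 13.4 CPM in NeuN- DKO libraries, so that its rise was 3.21 larger on the log2 scale in NeuN+ nuclei (adjusted p = 0.000318), and Gm15870 went with it (3.18, adjusted p = 0.000453). Slc25a18, a mitochondrial glutamate carrier, was at 10.2, 10.2 and 9.77 CPM against 11.2, 13.5 and 13.1 CPM in NeuN+ nuclei and at 57.4, 54.3 and 51.5 CPM against 39.9, 45 and 43.8 CPM in NeuN- nuclei (difference 0.69, adjusted p = 0.0189). The NeuN- count fell to 9 without DKO replicate 2, to 4 without Mutyh-/- replicate 1 and to 19 without Mutyh-/- replicate 2, and rose to 80 without DKO replicate 3 and 89 without Mutyh-/- replicate 3. The fractions were run on different lanes, and lane and fraction cannot be told apart.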

How the data were processed

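Nuclear RNA of hippocampal nuclei sorted by NeuN was read from total RNA libraries (SMARTer Stranded Total RNA-Seq). Per the submitters' processing notes, the authors checked reads with FastQC 0.11.9, aligned them with HISAT2 2.1.0 to GRCm38, sorted them with SAMtools 1.10 and counted them per gene with featureCounts against Ensembl release 102. The deposited values are raw counts per gene, in 1 table of 55254 genes for each fraction. Settings for strand, overlapping genes and reads with several matches are not given in the sources used here, and such settings decide the counts of gene copies.

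From these counts edgeR 4.0.16 (R 4.3.3) fitted the 12 NeuN+ libraries with 1 coefficient per genotype after TMM scaling and filterByExpr, which left 30132 genes. The common biological coefficient of variation was 0.0823. Quasi-likelihood tests gave each contrast, with Benjamini-Hochberg adjustment over all genes tested, and a gene was called with an adjusted p under 0.05 together with a log2 fold change beyond 0.5 in either direction. The test of Ogg1 loss by Mutyh background used the same fit, NeuN- nuclei a second fit of 12 libraries and the comparison of fractions a fit of all 24. Interaction tests used the adjusted p alone. CPM are TMM-scaled. The fits were tested on simulated data.

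Positions came from GENCODE vM21 and, where missing there, RefSeq (both GRCm38), for 98.8% of tested genes. Shared sequence was measured as 100-base stretches of a gene's transcripts found in another gene. The 20 Mb window came from the design. The stretches of 41 to 43 Mb on chromosome 4 and 69 to 70 Mb on chromosome 14 were set after the data were seen. The comparison, its gene lists and its tests were chosen with earlier results of these data known.

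The text names Ogg1, Mutyh and Camk1, the 12 called genes of smallest adjusted p in each direction, the 5 with the largest change, the called genes near Ogg1, the list members of smallest p and up to 5 genes of each interaction test. Slc25a37, Loxl2, the Ccl21 copies, Pisd, Zfp248, Smok2a, Hspa5, Pdia4 and Xbp1 were named after their values were seen. Replicates are separate samples in the labels, but with pooled tissue it is not clear that they are separate sets of animals, so p-values measure the spread between these samples. Alternatives were another scaling (RLE), DESeq2 1.42.0, the likelihood ratio test, other filters, only the groups compared, a replicate block, each library left out and other thresholds.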

Additional observations from a re-analysis of the deposited data

Results flagged for a closer look

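By the interaction test (adjusted p under 0.05), the Ogg1 effect differed between the Mutyh-null and the Mutyh-intact background for 25 named genes. Effect here means the log2 difference between groups by the Ogg1 label, and its cause was not tested. Each value is the effect on the null minus that on the intact background. In the chromosome 4 cluster the differences were -4.03 for Gm13303, -2.16 for Gm13307, -2.21 for Gm21093, -2.46 for Gm3883, -5.12 for Gm17167, -4.36 for Ccl21d, -4.10 for Gm5859, -6.26 for Gm3893, -6.30 for Gm13301, -7.15 for Gm17081, -7.22 for Gm13302, -7.59 for Gm10600 and -7.60 for Gm10601. The Ccl21 copies gave -3.56 for Ccl21b, -3.03 for Gm13304 and -3.10 for Gm10591, and the genes without a position -7.08 for Gm50470, -5.00 for BX666061.1 and -7.92 for Gm10599. In the chromosome 14 cluster they were -1.01 for Entpd4b, -1.003 for Entpd4, -0.95 for Gm27221, -0.96 for Gm27176 and -1.60 for Slc25a37.

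Mid1, a ubiquitin ligase gene at the boundary of the pseudoautosomal region of the X chromosome, had a difference of 2.33. Its WT libraries stood at 63.6, 74.0 and 68.0 CPM, while Ogg1-/- stood at 13.4, 13.9 and 12.8 CPM, Mutyh-/- at 14.8, 14.9 and 13.5 CPM and DKO at 13.4, 13.2 and 15.7 CPM, so that the difference lay in WT and not between DKO and Mutyh-/-.

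Between the fractions, the DKO effect in NeuN+ minus that in NeuN- nuclei was 3.21 for Tspan11, 3.18 for Gm15870 and 0.69 for Slc25a18 on the log2 scale. For Slc25a18 the values were of opposite sign, 0.33 in NeuN+ (adjusted p = 0.369) and -0.34 in NeuN- nuclei (adjusted p = 0.0803), and neither passed the test by itself. No cause was tested for any of these differences.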

How the results depend on the processing

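Scaling by RLE left 42 genes called between DKO and Mutyh-/- in NeuN+ nuclei and DESeq2 gave 57, while the edgeR likelihood ratio test gave 76 (20 higher, 56 lower), no filter on low counts 93 (25 and 68) and a fit of only the 6 libraries compared 16 (4 and 12), all 16 of them among the 42. Leaving out 1 library gave 36 to 74 (6 to 23 higher, 30 to 52 lower). Without genes within 20 Mb of Ogg1, or of Ogg1 or Mutyh, 31 remained called (5 higher), and also without the chromosome 4 and chromosome 14 clusters and genes with no position, an alternative chosen after seeing the data, 7 (5 higher, 2 lower). Of the 42 called genes, 26 lost their call in the fit of only the groups compared. None of 46 named genes, some of which were not called, and no count changed direction under any alternative run.

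For Ogg1-/- against WT, 173 calls became 332 with the likelihood ratio test, 308 with no filter, 305 with only the groups compared, 331 with no limit on the fold change, 61 with an absolute log2 above 1, and 70 to 164 with 1 library left out. The 48 genes whose Ogg1 effect differed between Mutyh backgrounds became 81 with DESeq2, 104 with the likelihood ratio test, 116 with no filter and 39 to 109 with 1 library left out. In NeuN- nuclei, 39 calls became 146 with DESeq2, 160 with the likelihood ratio test, 73 with no filter, 2 with only the groups compared, 24 with an absolute log2 above 1 and 4 to 89 with 1 library left out. The 3 genes that differed between fractions became 20 with DESeq2, 14 with the likelihood ratio test and 2 to 4 with 1 library left out. The causes were not tested.

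With a replicate block in the fit, 49 genes were called, including all 42. Same-numbered Mutyh-/- and DKO libraries had correlations of deviations of -0.19, 0.17 and -0.13, so the numbers were not taken as pairs.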

Other observations

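A set of 15 genes linked to the endoplasmic reticulum was looked at after values were seen. All 15 were higher in Mutyh-/- replicates 1 and 2 than in the other 10 libraries, in NeuN+ and in NeuN- nuclei. They were picked because of it, so their values are a description only, and 3 of them are given here. Hspa5, a chaperone of the endoplasmic reticulum, was at 59.0, 60.4 and 35.4 CPM in NeuN+ Mutyh-/- libraries and at 20.05, 28.0 and 34.5 CPM in DKO (log2 -0.90, adjusted p = 0.288, edgeR). In NeuN- nuclei, which were separate libraries but may come from the same tissue, Hspa5 was at 90.3, 89.5 and 47.6 CPM in Mutyh-/-. Pdia4, a protein disulfide isomerase, was at 32.3, 34.2 and 16.9 CPM against 12.2, 17.9 and 19.2 CPM in NeuN+ nuclei, and Xbp1, a transcription factor of the unfolded protein response, at 16.9, 17.5 and 10.6 CPM against 8.53, 10.9 and 12.3 CPM. None of the 3 was called with all libraries by the quasi-likelihood test, while the edgeR likelihood ratio test called Hspa5. Without Mutyh-/- replicate 3 the log2 change of Hspa5 was -1.12, which follows from how the gene was picked.

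Smok2a, a sperm motility kinase gene, was at 4.25, 2.54 and 0.135 CPM in the DKO NeuN+ libraries. It was at 0.114, 0.162 and 0.0512 CPM in Mutyh-/- (log2 4.45, adjusted p = 0.0791, edgeR). WT stood at 0.163, 0.165 and 0.200 CPM and Ogg1-/- at 0.210, 0.136 and 0.236 CPM. DKO replicates 1 and 2 thus stood apart from all other libraries, while DKO replicate 3 was close to the other genotypes.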
